A study of Mus musculus with 6 samples.

Results

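The genes described here build and run mitosis. They are 44 genes of mitotic entry, spindle assembly and cytokinesis, taken by gene symbol from a count table of 24421 genes, and all 44 were present in it. They comprise Cdk1 and its B cyclins, the enzymes that switch Cdk1 on and off, the Polo and Aurora A kinases with their partners, proteins that shape the spindle, the machinery of anaphase, the proteins that cut the cell apart, and a few genes of chromosomes in mitosis, among them the proliferation marker Mki67.

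A cell enters mitosis when Cdk1, bound to a B-type cyclin, is freed from inhibitory phosphates that Wee1 and Pkmyt1 add and Cdc25 phosphatases remove. Plk1 and Aurora A amplify this switch, microtubule-binding proteins such as Tpx2 build the spindle, and the anaphase-promoting complex (APC/C) ends mitosis by destroying cyclin B and securin. Most of these genes are transcribed in G2 and mitosis of dividing cells and are silent in resting ones, and many carry a promoter element called the cell cycle homology region (CHR) together with CCAAT boxes, which bind NF-Y. In the adult brain such transcripts mark dividing stem and progenitor cells of the subventricular zone.

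RNA sequencing was done on cultured neural stem cells. They came from the adult subventricular zone (C57BL/6 mice, postnatal day 60) and were kept in EGF and FGF2, each at 20 ng/ml. There were 3 libraries of wild-type cells given 20 µM PluriSIn#2, a small molecule that the labels call an inhibitor of topoisomerase IIA, for 3 days, and 3 libraries of wild-type cells given its solvent, DMSO. Medium was replaced at 24 h. Total counts ran from 16670962 to 17827158 in PluriSIn#2 libraries and from 18186070 to 19241869 in DMSO libraries. The treatment field of treated replicates 2 and 3 reads PluriSIn#3 and PluriSIn#4, against PluriSIn#2 in their titles, so a fit with treated replicate 1 alone is given beside the counts that rest on all 3. The labels do not state whether replicates were separate cultures. The p-values therefore reflect spread among these 6 libraries alone, and that spread may be technical.

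The question of the comparison is what inhibiting topoisomerase IIA does to transcripts of these cells. Top2a, which encodes a target of the compound and is expressed in dividing cells, stood at 5.58, 7.46 and 4.98 CPM in PluriSIn#2 libraries, against 853, 887 and 892 CPM in DMSO libraries. CPM are counts scaled to a common library total after scaling by TMM, a factor that evens out differences in composition between libraries. Stem cell markers were present in both groups, with the 12 listed ones summing to between 8509 and 8538 CPM in PluriSIn#2 and between 9347 and 9447 CPM in DMSO, and 4 of them were called higher and 8 lower.

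The stretches around the starts of some of the genes are shown before the values. The sequences are from RefSeq on GRCm38.p6, run from 130 bases before the annotated start to 30 bases from it, and have CHR letters (TTTGAA or TTCGAA) and CCAAT boxes (CCAAT), read on both strands, in capitals. No matches share a letter in the stretches shown, and a match describes letters, not a bound site. Other letter forms of the CHR were not searched. A gene said below to lack a CHR is therefore one without TTTGAA or TTCGAA. The 3 genes with the largest falls that have an entry are shown as the extreme of the response.

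Depdc1a, chr3:159495303-159495462, plus strand: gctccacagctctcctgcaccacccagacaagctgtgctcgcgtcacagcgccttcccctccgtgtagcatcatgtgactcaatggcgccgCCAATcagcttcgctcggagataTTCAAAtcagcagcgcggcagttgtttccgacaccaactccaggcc
Mki67, chr7:135716350-135716509, minus strand: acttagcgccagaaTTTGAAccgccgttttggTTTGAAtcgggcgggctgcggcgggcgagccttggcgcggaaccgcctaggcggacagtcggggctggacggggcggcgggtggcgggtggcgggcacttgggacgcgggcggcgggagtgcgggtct
Cep55, chr19:38054854-38055013, plus strand: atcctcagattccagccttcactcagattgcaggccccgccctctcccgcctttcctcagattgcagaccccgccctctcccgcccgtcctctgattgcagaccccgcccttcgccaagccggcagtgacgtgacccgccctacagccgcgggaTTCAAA

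The 3 genes with the smallest falls are shown as the other extreme.

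Ckap5, chr2:91526632-91526791, plus strand: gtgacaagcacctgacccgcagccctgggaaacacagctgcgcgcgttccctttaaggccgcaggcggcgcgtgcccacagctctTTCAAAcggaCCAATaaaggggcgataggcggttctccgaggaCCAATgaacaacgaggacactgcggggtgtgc
Gtse1, chr15:85859577-85859736, plus strand: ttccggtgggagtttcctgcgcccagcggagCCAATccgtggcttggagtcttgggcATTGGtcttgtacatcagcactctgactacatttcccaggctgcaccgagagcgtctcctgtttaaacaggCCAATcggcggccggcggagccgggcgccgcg
Ckap2, chr8:22185790-22185949, minus strand: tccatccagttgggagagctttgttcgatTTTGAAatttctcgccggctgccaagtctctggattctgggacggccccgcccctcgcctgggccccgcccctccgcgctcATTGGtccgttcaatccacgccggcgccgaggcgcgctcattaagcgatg

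Cdk1 and its B cyclins were added after the motifs were seen, as the core of the mitotic switch.

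Cdk1, chr10:69352883-69353042, minus strand: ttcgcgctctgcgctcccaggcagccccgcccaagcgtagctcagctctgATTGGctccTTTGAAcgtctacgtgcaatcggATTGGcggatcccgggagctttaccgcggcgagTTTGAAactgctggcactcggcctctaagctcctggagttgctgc
Ccnb1, chr13:100786457-100786616, minus strand: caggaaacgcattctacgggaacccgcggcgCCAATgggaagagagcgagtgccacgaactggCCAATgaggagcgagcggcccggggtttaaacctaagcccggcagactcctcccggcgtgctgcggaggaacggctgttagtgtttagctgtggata
Ccnb2, chr9:70421525-70421684, minus strand: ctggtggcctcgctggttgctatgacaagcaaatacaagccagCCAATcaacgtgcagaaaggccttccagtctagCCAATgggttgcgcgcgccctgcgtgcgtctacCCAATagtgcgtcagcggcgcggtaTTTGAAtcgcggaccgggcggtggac

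Ccnb2 showed 3 CCAAT boxes at even spacing, starting 87, 54 and 21 bases before the start, followed by a CHR whose first base is base 5 of the transcript. Ccnb1 held a pair of CCAAT boxes, 99 and 67 bases before the start, and neither of the CHR forms searched. Mki67 held a pair of CHR matches, 116 and 98 bases before the start. Gtse1, a gene with one of the smallest falls, held 3 CCAAT boxes in the window shown and neither of the CHR forms searched. Ckap5, with the smallest fall, held a CHR 45 bases before the start and CCAAT boxes 35 and 2 bases before it.

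Over the table's full windows, from 250 bases before the start to 50 after it, 35 of the 44 genes had an entry, some with more than 1 start, giving 39 windows. Ect2, Prc1, Gtse1 and Cep55 had more than 1 window. The intervals below treat windows as independent draws, which windows of the same gene in a chosen list are not. By gene, 24 of the 35 held a CHR. A CHR was found in 27 of the 39 windows (69.2%, exact 95% binomial interval 52.4 to 83.0), against 19.2% of all 32851 windows of the table and 13.3% of windows of the genes tested here. CCAAT was found in 29 of the 39 (74.4%, interval 57.9 to 87.0), against 37.4% of all windows and 37.5% of those of tested genes. Pairs of CCAAT boxes 30 to 35 bases apart were found in 10 of 39 windows (25.6%), against 1.64% of all windows and 2.47% of those of tested genes. The 24 genes with a CHR had a median log2 fold change of -5.57 and the 11 without one a median of -4.45, with overlapping ranges, from -8.36 to -0.57 and from -7.15 to -0.59. The 21 genes with both motifs had a median of -5.58 and the 6 with neither a median of -3.91. The 6 were Melk (-7.15), Nusap1 (-5.45), Pttg1 (-4.45), Tacc3 (-3.36), Cit (-3.24) and G2e3 (-2.33). These differences between motif groups were not tested.

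**Figure D1:**
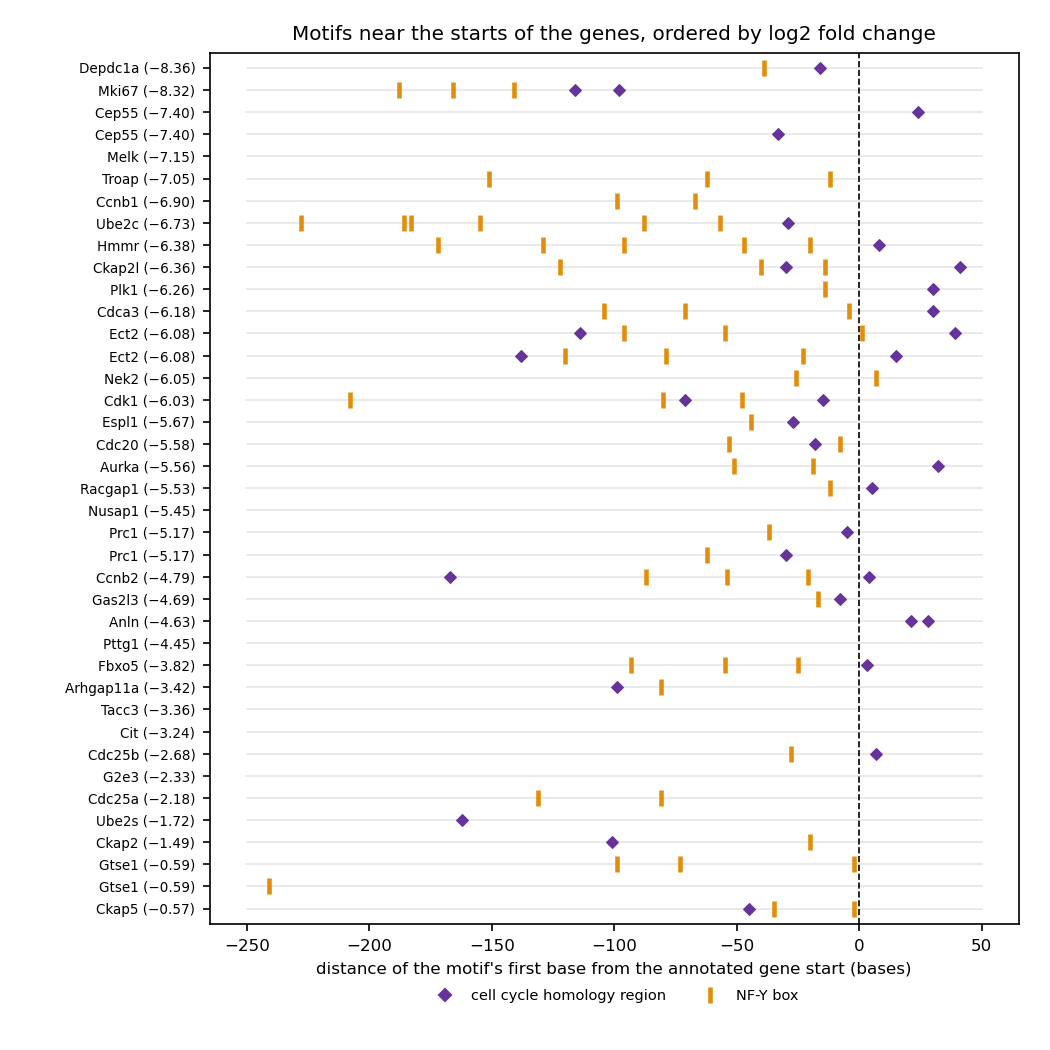
Positions of the CHR (purple diamonds) and of the NF-Y or CCAAT box (orange bars) in 39 windows around the starts of 35 of the genes, with the distance of each motif's first base from the start in bases on the x axis. Rows are ordered by log2 fold change, PluriSIn#2 over DMSO, given in brackets. Depdc1a in the top row and Ckap5 in the lowest row each hold both motifs, and the 6 genes with neither run from Melk (-7.15) to G2e3 (-2.33), with a median of -3.91 against -5.58 for genes with both.

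All 44 genes were lower in PluriSIn#2 and passed the test, at adjusted p-values of 1.62e-25 or lower (quasi-likelihood test of edgeR, Benjamini-Hochberg adjusted over 14417 genes, the source of all adjusted p-values below). Over all genes tested, 40.9% were called lower and 41.7% higher. With DESeq2 all 44 were also lower (29.4% of all genes lower, 30.1% higher), as with limma on log2(FPKM + 1) (39.5% lower, 43.3% higher). A call is thus common in these data, and sizes are given beside it. At least 4-fold falls were found for 39 of the 44 genes, against 3.86% of all genes tested, and at least 16-fold falls for 30 of 44, against 1.26%. Their median log2 fold change was -5.49, and that of all genes tested was 0.01. The 44 genes were chosen with earlier results of these data known, so these contrasts describe the set and test nothing. No PluriSIn#2 value of any of the 44 reached a DMSO value, a pattern that 40.9% of the genes tested also showed in that direction. With treated replicate 1 alone against the 3 DMSO libraries, the median of the 44 was -5.31. That fit takes its spread from the DMSO libraries only, so its effect size alone is given here. In these bulk samples, fewer dividing cells and less RNA per cell cannot be told apart.

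The fall was not even. In PluriSIn#2, 10 genes kept less than 1% of their DMSO level in CPM, 20 kept between 1% and 5%, 9 kept between 5% and 25%, and 5 kept more than 25%. Those 5 were Ckap5, Gtse1, Ckap2, Wee1 and Ube2s. The summed level of the 44 genes was 685, 682 and 679 CPM in PluriSIn#2 libraries, against 6630, 6682 and 6743 CPM in DMSO libraries. The treated libraries were close to each other and about 9.8 times below the DMSO libraries. Ckap5, Gtse1 and Ckap2 made up 68.5% of the treated sum and 11.8% of the DMSO sum, and without them the sum was 215 ± 1.45 CPM in PluriSIn#2 and 5895 ± 49.4 CPM in DMSO (SD, n = 3 each), which leaves 3.65%.

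**Figure D2:**
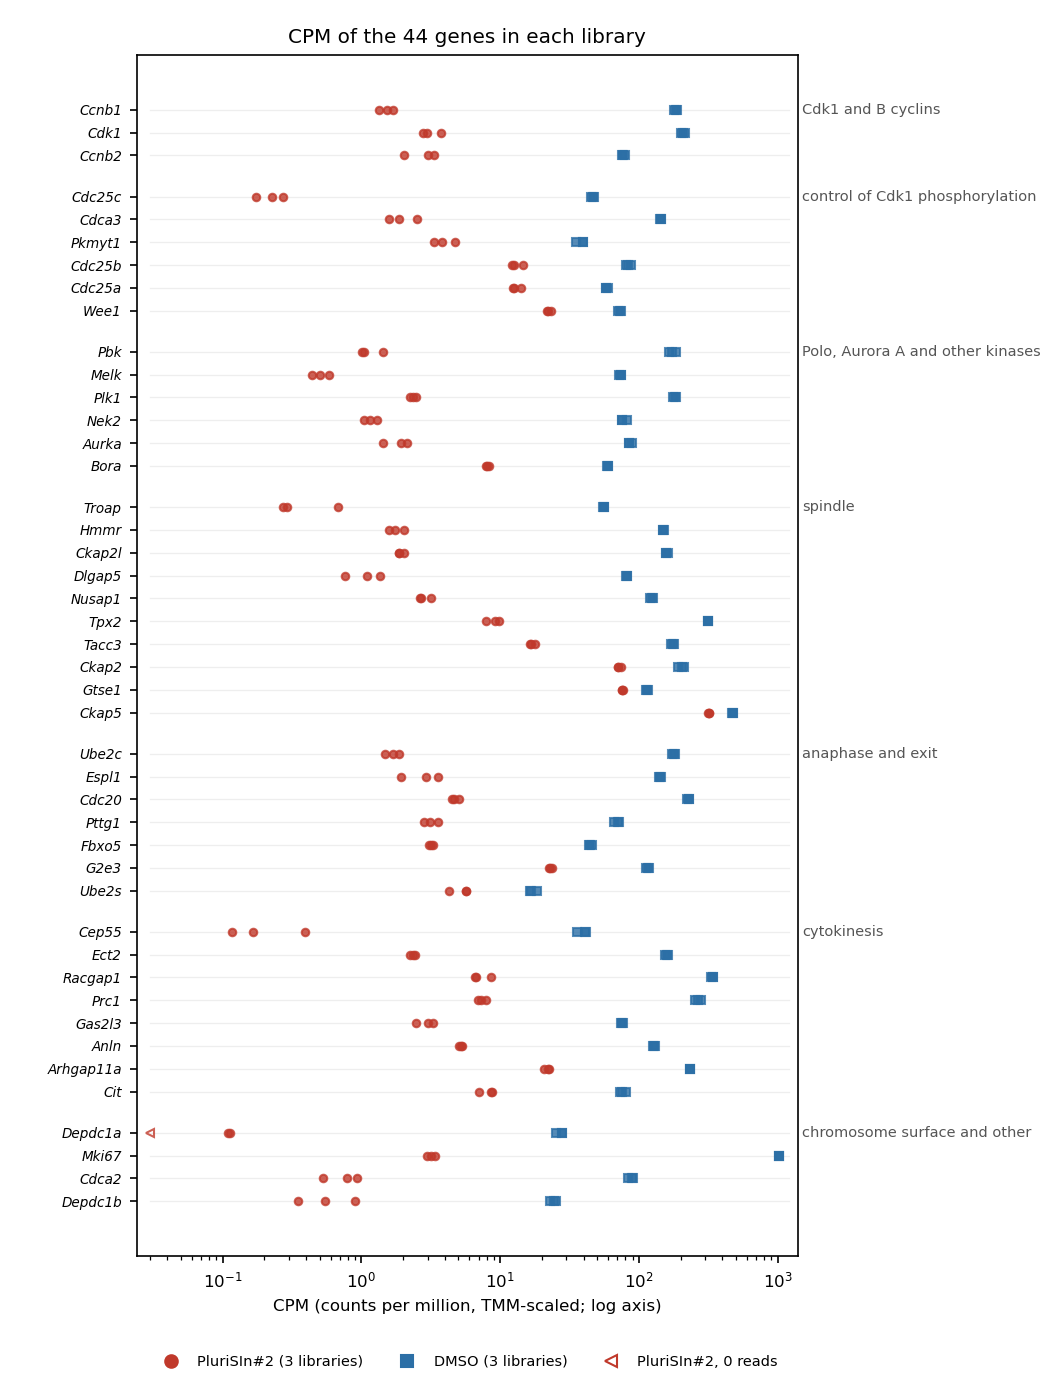
CPM of each of the 44 genes in each library on a log axis, grouped by role, with PluriSIn#2 libraries as red circles and DMSO libraries as blue squares. The groups do not overlap for any gene, and the gap is narrowest for Ckap5 and Gtse1; the open triangle marks the treated library in which Depdc1a had 0 reads.

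**Figure D3:**
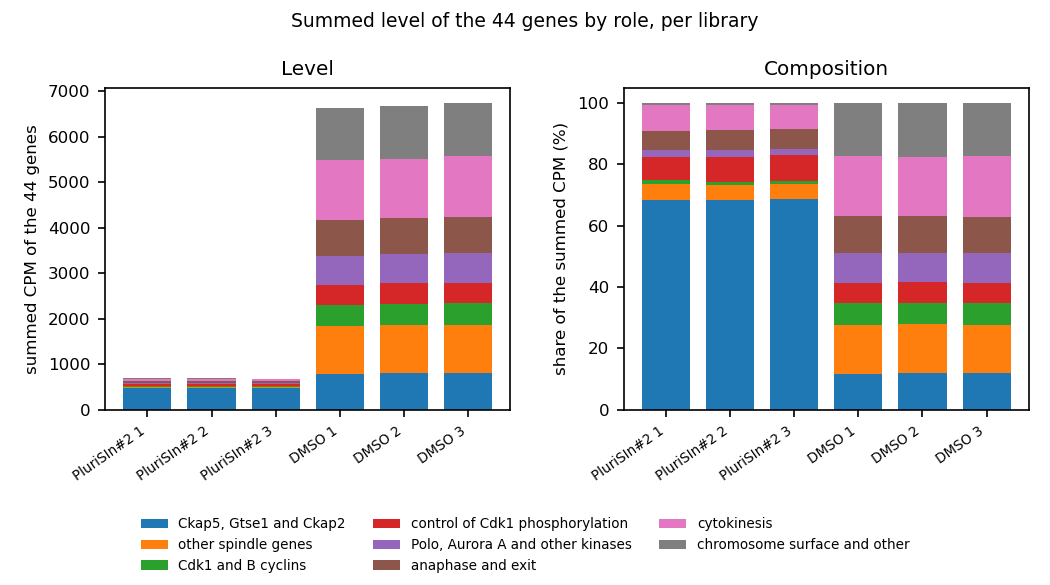
Summed CPM of the 44 genes per library, stacked by role, as a level (left) and as a share of the sum (right). The treated bars reach 679 to 685 CPM and are mostly Ckap5, Gtse1 and Ckap2, while the DMSO bars reach 6630 to 6743 CPM.

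Of the mitotic kinase and its cyclins, Ccnb1 and Cdk1 fell by more than the median of the 44 genes (-5.49) and Ccnb2 by less. Ccnb1, the main mitotic cyclin, stood at 1.52, 1.70 and 1.35 CPM in PluriSIn#2 libraries, against 179, 183 and 188 CPM in DMSO libraries. Ccnb2, a cyclin found mainly at the Golgi, stood at 2.03, 3.02 and 3.34 CPM in PluriSIn#2, against 79.4, 76.0 and 76.5 CPM in DMSO. Cdk1, the kinase both cyclins activate, stood at 3.78, 2.80 and 2.99 CPM in PluriSIn#2, against 208, 201 and 215 CPM in DMSO. Every treated library was far below every DMSO library for each of them, at log2 fold changes of -6.90 (SE 0.075, adjusted p = 9.94e-84, edgeR), -4.79 (SE 0.086, adjusted p = 4.37e-66) and -6.03 (SE 0.065, adjusted p = 6.83e-84). The cyclins thus changed order. In FPKM, which divides by gene length and allows levels of genes to be compared, the ratio of Ccnb1 to Ccnb2 was 0.499, 0.356 and 0.259 in PluriSIn#2 libraries, against 1.5, 1.61 and 1.64 in DMSO libraries. GENCODE lists a pseudogene named for each of these cyclins, and reads shared with them make these values uncertain.

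The genes that set the inhibitory phosphates on Cdk1 split by paralogue. Among the Cdc25 phosphatases, which remove them, Cdc25c fell furthest, to 0.226, 0.274 and 0.176 CPM in PluriSIn#2 libraries (12 reads in all), against 47.0, 47.7 and 45.3 CPM in DMSO libraries. Cdc25a, which also acts at the entry to S phase, stood at 12.6, 12.3 and 14.1 CPM in PluriSIn#2, against 58.1, 58.2 and 60.2 CPM in DMSO. Cdc25b, thought to start the activation of Cdk1 at the centrosome, stood at 12.6, 14.7 and 12.1 CPM in PluriSIn#2, against 81.3, 88.4 and 83.4 CPM in DMSO. All treated libraries were lower than all DMSO libraries for the 3 phosphatases, at log2 fold changes of -7.64 (SE 0.154, adjusted p = 2.2e-62, edgeR) for Cdc25c, -2.18 (SE 0.065, adjusted p = 5.95e-49) for Cdc25a and -2.68 (SE 0.061, adjusted p = 4.68e-58) for Cdc25b. Per length, Cdc25c made up 1.45% ± 0.277 of the FPKM summed over the 3 phosphatases in PluriSIn#2 and 35.6% ± 0.753 in DMSO (SD, n = 3 each).

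The kinases that oppose them fell less than most of the 44 genes. Wee1, the nuclear kinase, stood at 22.3, 21.9 and 23.4 CPM in PluriSIn#2 libraries, against 71.2, 73.7 and 73.1 CPM in DMSO libraries. Pkmyt1, its membrane-bound relative, stood at 3.33, 4.71 and 3.81 CPM in PluriSIn#2, against 39.3, 39.5 and 35.1 CPM in DMSO. Neither gene's groups overlapped, with log2 fold changes of -1.69 (SE 0.055, adjusted p = 1.63e-46, edgeR) for Wee1 and -3.26 (SE 0.098, adjusted p = 4.75e-49) for Pkmyt1. Cdca3, an adaptor that helps to destroy Wee1 at mitotic entry, stood at 1.58, 1.86 and 2.52 CPM in PluriSIn#2, against 141, 145 and 145 CPM in DMSO, a log2 fold change of -6.18 (SE 0.077, adjusted p = 8.32e-79). In FPKM, Wee1 exceeded Cdk1 by a ratio of 4.93, 6.54 and 6.54 in PluriSIn#2 libraries, whereas in DMSO libraries the ratio of Wee1 to Cdk1 was 0.287, 0.307 and 0.284. The FPKM of the 3 phosphatases over those of both kinases came to 0.925, 0.945 and 0.893 in PluriSIn#2, against 1.61, 1.64 and 1.67 in DMSO. Cdc25c, at a mean of 0.116 FPKM in PluriSIn#2 and 23.0 FPKM in DMSO, weighs on this ratio. Cdc25a (-2.18) and Cdc25b (-2.68) fell more than Wee1 but less than Pkmyt1. These ratios describe transcripts, and their differences between groups were not tested.

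**Figure D4:**
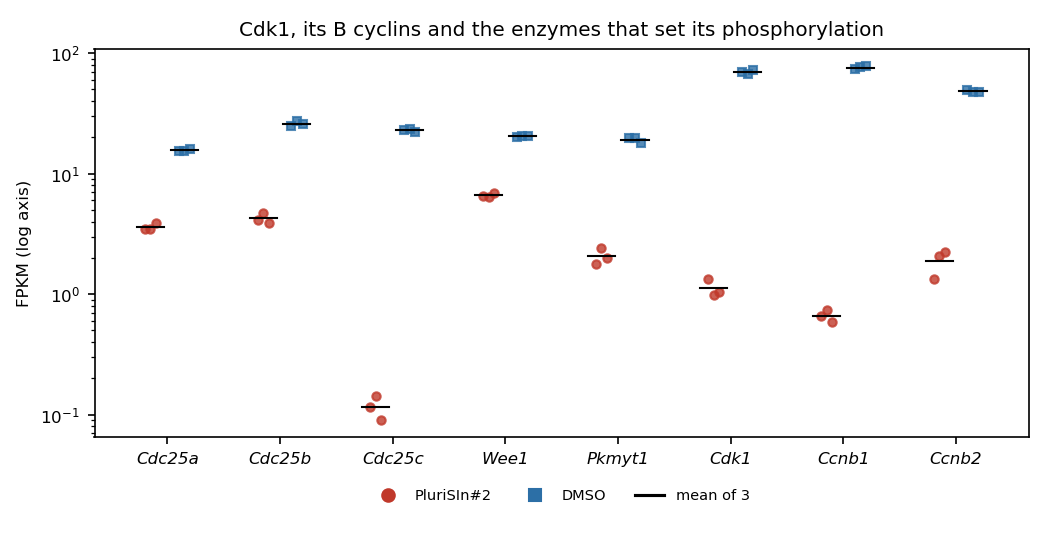
FPKM of the Cdc25 phosphatases, the opposing kinases Wee1 and Pkmyt1, Cdk1 and its B cyclins in each library on a log axis, with PluriSIn#2 in red on the left of each pair, DMSO in blue, and a bar at the mean of 3 libraries. Wee1 is the highest of these genes in PluriSIn#2 and among the lower ones in DMSO, and Cdc25c is the lowest in PluriSIn#2.

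Among the other mitotic kinases and their partners, 5 of 6 fell at least 16-fold, and Bora, the cofactor through which Aurora A activates Plk1, fell less. Pbk, a mitotic kinase also called TOPK and the most abundant of these 6 per length in DMSO (102 FPKM), stood at 1.02, 1.43 and 1.05 CPM in PluriSIn#2 libraries, against 164, 173 and 186 CPM in DMSO libraries. Plk1, which acts at centrosomes, kinetochores and the midzone, stood at 2.37, 2.47 and 2.23 CPM in PluriSIn#2, against 186, 176 and 181 CPM in DMSO. Bora stood at 8.29, 8.06 and 7.91 CPM in PluriSIn#2, against 59.6, 59.5 and 59.2 CPM in DMSO. The groups lay apart for all 3, at log2 fold changes of -7.22 (SE 0.083, adjusted p = 1.88e-81, edgeR), -6.26 (SE 0.069, adjusted p = 6.34e-83) and -2.88 (SE 0.071, adjusted p = 2.63e-55). Melk (-7.15) lay between Pbk and Plk1, and the centrosome kinase Nek2 (-6.05) and Aurka (-5.56) fell less than Plk1.

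The spindle genes spread widely, from a log2 fold change of -7.05 to the smallest fall of the 44 genes, -0.57. Troap, a spindle protein also called tastin, stood at 0.677, 0.274 and 0.293 CPM in PluriSIn#2 libraries, which is 22 reads in all, against 56.0, 56.4 and 55.0 CPM in DMSO libraries. Its log2 fold change was -7.05 (SE 0.134, adjusted p = 2.74e-64, edgeR). Hmmr, which helps to focus spindle poles (-6.38), Dlgap5, which stabilises kinetochore fibres (-6.24), the microtubule bundler Nusap1 (-5.45) and Tpx2, the activator of Aurora A on the spindle (-5.13), fell less than Troap. Tacc3, which bridges spindle microtubules together with clathrin and the Ckap5 protein, fell by 3.36 on the log2 scale.

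The Ckap5 transcript, which encodes the microtubule polymerase chTOG, used in interphase as well as in mitosis, had the smallest fall of the 44. It stood at 322, 317 and 318 CPM in PluriSIn#2 libraries, against 470, 476 and 476 CPM in DMSO libraries, a log2 fold change of -0.57 (SE 0.024, adjusted p = 2.76e-38, edgeR). Gtse1, a microtubule-binding protein that also restrains p53 and whose mouse gene is known as a p53 target, stood at 76.0, 75.1 and 76.5 CPM in PluriSIn#2, against 116, 112 and 114 CPM in DMSO. Its log2 fold change was -0.59 (SE 0.038, adjusted p = 1.62e-25). The treated libraries were lower than all DMSO libraries for both genes, but about 67% of the DMSO level of each was left. The gene pair of Ckap2 and Ckap2l diverged. Ckap2, a spindle protein that promotes microtubule growth, stood at 70.3, 74.8 and 71.1 CPM in PluriSIn#2, against 192, 211 and 204 CPM in DMSO (log2 fold change -1.49, SE 0.036, adjusted p = 3.16e-56). Ckap2l, its relative, stood at 1.86, 2.03 and 1.87 CPM in PluriSIn#2, against 156, 158 and 162 CPM in DMSO (log2 fold change -6.36, SE 0.074, adjusted p = 2.96e-81). The ratio of Ckap2 to Ckap2l in FPKM was therefore 45.3 ± 0.688 in PluriSIn#2 and 1.54 ± 0.065 in DMSO (SD, n = 3 each). In PluriSIn#2, Ckap5 (48.7 FPKM), Gtse1 (28.0) and Ckap2 (27.8) were the 3 highest of the 44 genes per length, the last 2 not apart beyond their spread, and Wee1 followed at 6.61. In DMSO the highest were Ube2c (184 FPKM), Cdc20 (123), Racgap1 (105) and Pbk (102), and Racgap1 and Pbk were not apart beyond their spread.

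Genes of anaphase and mitotic exit showed another split, between the ubiquitin-conjugating enzymes that work with the APC/C. Ube2c, which starts ubiquitin chains on its substrates, stood at 1.69, 1.48 and 1.87 CPM in PluriSIn#2 libraries, against 182, 180 and 173 CPM in DMSO libraries. Ube2s, which lengthens those chains, stood at 5.64, 5.65 and 4.27 CPM in PluriSIn#2, against 18.4, 16.4 and 16.7 CPM in DMSO. No treated library reached a DMSO library for either, and the log2 fold changes were -6.73 (SE 0.074, adjusted p = 3.98e-83, edgeR) and -1.72 (SE 0.11, adjusted p = 6.76e-26). In FPKM the ratio of Ube2c to Ube2s was 0.354 ± 0.098 in PluriSIn#2 and 11.1 ± 0.604 in DMSO (SD, n = 3 each). Exons of Ube2s overlap exons of Rpl28 on the other strand in GENCODE, and exons of Ube2c, Cdc20, Cdc25b, Pkmyt1, Nusap1, Tacc3 and Prc1 likewise overlap another tested gene. The sources used here do not state a strand setting, so for these 8 genes and their neighbours the reads cannot be told apart.

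Cdc20, the activator of the APC/C in mitosis, stood at 4.68, 4.50 and 5.09 CPM in PluriSIn#2 libraries, against 230, 223 and 228 CPM in DMSO libraries, without overlap (log2 fold change -5.58, SE 0.057, adjusted p = 1.67e-85, edgeR). Espl1, the protease separase that opens cohesin rings (-5.67), fell more than Pttg1, its inhibitor securin (-4.45). Fbxo5, the APC/C inhibitor Emi1 (-3.82), and the ubiquitin ligase gene G2e3 (-2.33) kept 7.07% and 19.9% of their DMSO level in CPM.

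All 8 cytokinesis genes fell at least 9.4-fold in CPM. Racgap1, a subunit of centralspindlin that helps to place the cleavage furrow, stood at 6.71, 8.55 and 6.56 CPM in PluriSIn#2 libraries, against 340, 329 and 343 CPM in DMSO libraries. Cep55, which recruits the abscission machinery to the midbody, stood at 0.395, 0.164 and 0.117 CPM in PluriSIn#2, which is 12 reads in all, against 41.0, 35.9 and 41.5 CPM in DMSO. Cit, the midbody kinase citron, stood at 8.74, 7.02 and 8.61 CPM in PluriSIn#2, against 80.7, 75.5 and 73.2 CPM in DMSO. The groups lay apart for all 3, with log2 fold changes of -5.53 (SE 0.050, adjusted p = 1.23e-89, edgeR), -7.40 (SE 0.169, adjusted p = 3.53e-58) and -3.24 (SE 0.070, adjusted p = 4.16e-60). Between them lay Ect2, the exchange factor that activates RhoA at the furrow (-6.08), the midzone bundler Prc1 (-5.17), Gas2l3, which links actin and microtubules (-4.69), the furrow scaffold anillin, Anln (-4.63), and the RhoA-inactivating Arhgap11a (-3.42).

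The 4 remaining genes include those with the largest falls. Mki67, whose protein Ki-67 coats mitotic chromosomes, had the most reads of the 44 in DMSO and kept 0.313% of that level in PluriSIn#2, at 2.99, 3.18 and 3.40 CPM, against 1016, 1027 and 1017 CPM in DMSO. Its log2 fold change was -8.32 (SE 0.045, adjusted p = 8.37e-108, edgeR). Depdc1a stood at 0.113, 0.110 and 0 CPM in PluriSIn#2, against 25.1, 28.0 and 28.0 CPM in DMSO, and its log2 fold change of -8.36 (SE 0.222, adjusted p = 5.45e-53) rests on 4 treated reads. Its relative Depdc1b stood at 0.902, 0.548 and 0.351 CPM in PluriSIn#2, against 25.5, 23.1 and 24.3 CPM in DMSO, without overlap (log2 fold change -5.31, SE 0.161, adjusted p = 9.96e-49). Cdca2, the chromosome-bound phosphatase scaffold Repo-Man, fell by 6.86 on the log2 scale.

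Of 10 further lists of mitotic machinery, 9 had a median nearer to 0 than the 44 genes. Over the lists, 93 of 135 genes tested were called lower, 27 higher and 15 neither, with a median log2 fold change of -0.36, beside 40.9% lower and 41.7% higher and a median of 0.01 over all genes tested. The chromosomal passenger complex was the exception, with 4 of 4 tested members lower, a median of -6.10 and its kinase Aurkb at -7.39. Of the A- and F-type cyclins, Cks subunits and the CDK-activating kinase, 6 of 8 were lower and 2 higher (median -2.42), from Ccna2, which drives S and G2 phase (-6.88), to Cdk7, the activating kinase (0.53).

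Among transcription factors of G2 and M phase promoters, 11 of 14 were lower and 2 higher (median -0.80). Foxm1, an activator of these promoters, stood at 6.56 ± 0.148 CPM in PluriSIn#2 and 181 ± 3.12 CPM in DMSO (SD, n = 3 each), a log2 fold change of -4.79 (SE 0.057, adjusted p = 1.18e-80, edgeR). Lin52, a subunit of the DREAM complex that represses them in resting cells, stood at 30.8 ± 0.642 CPM in PluriSIn#2 and 16.7 ± 0.311 CPM in DMSO (0.88, SE 0.072, adjusted p = 5.16e-20). Rbl2 (0.40) was the other factor called higher, and Lin37 (-0.15) was not called. Called lower besides Foxm1 were Mybl2 (-4.74), Rbl1 (-3.46), Lin9 (-2.01), Lin54 (-1.82), Tfdp1 (-1.54), Nfya (-0.90), Rbbp4 (-0.70), Nfyc (-0.50), Nfyb (-0.40) and E2f4 (-0.30). Lin52 thus did not stand for the list, most of which fell.

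The microtubule nucleators differed by complex. Of 18 genes of the gamma-tubulin ring and of augmin, which branches microtubules in the spindle, 15 were lower and 1 higher (median -1.17). Haus4 was lowest (-2.90) and Haus2 highest (0.11, adjusted p = 0.0373, edgeR). Apart from Haus2, the augmin genes ran from -2.90 to -1.46 (Haus7). The ring genes, counting Nedd1, ran from -1.35 (Nedd1) to -0.04 (Mzt1). Of 20 other microtubule and spindle pole genes, 16 were lower and 1 higher (median -0.36), with the microtubule destabiliser Stmn1 at -2.94 and the plus-end protein Mapre3 at 1.33. Of 15 APC/C core subunits and the activator Cdh1, 10 were lower and 3 higher (median -0.45), between Anapc15 (-1.60) and Anapc16 (0.48). Of 14 genes of mitotic phosphatases and the Greatwall pathway, 8 were lower and 3 higher (median -0.17). The Greatwall kinase gene Mastl fell by 3.79 on the log2 scale. Ppp2cb, a catalytic subunit of PP2A, stood at 128, 134 and 165 CPM in PluriSIn#2, against 108, 110 and 114 CPM in DMSO, so that its rise (0.36) was uneven between treated libraries.

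Of 15 genes of the G2 checkpoint, 10 were lower and 4 higher (median -0.28). The checkpoint kinase gene Chek1 was lowest (-4.03), and Sfn, whose 14-3-3 protein holds Cdk1 and cyclin B in the cytoplasm, was highest (2.21), at 6.08 ± 0.528 CPM in PluriSIn#2 and 1.31 ± 0.305 CPM in DMSO (SD, n = 3 each). The other 14-3-3 genes listed were more abundant and all called lower, from Ywhah (-1.27) to Ywhab (-0.06). Cdkn1a (2.05), at 1418 ± 2.67 CPM in PluriSIn#2 and 343 ± 4.81 CPM in DMSO, Gadd45a (1.10) and Fbxw11 (0.21) were also higher. Of 13 tested genes of the contractile ring and RhoA, 9 were lower and 2 higher (median -0.36), with the myosin heavy chain gene Myh10 at -1.37 and the light chain gene Myl6 at 0.52. In the ESCRT abscission machinery, which also serves endosomes, more genes were higher than lower, 9 against 4 of 14 tested (median 0.23), between Spast (-0.88) and Chmp5 (0.52).

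**Figure D5:**
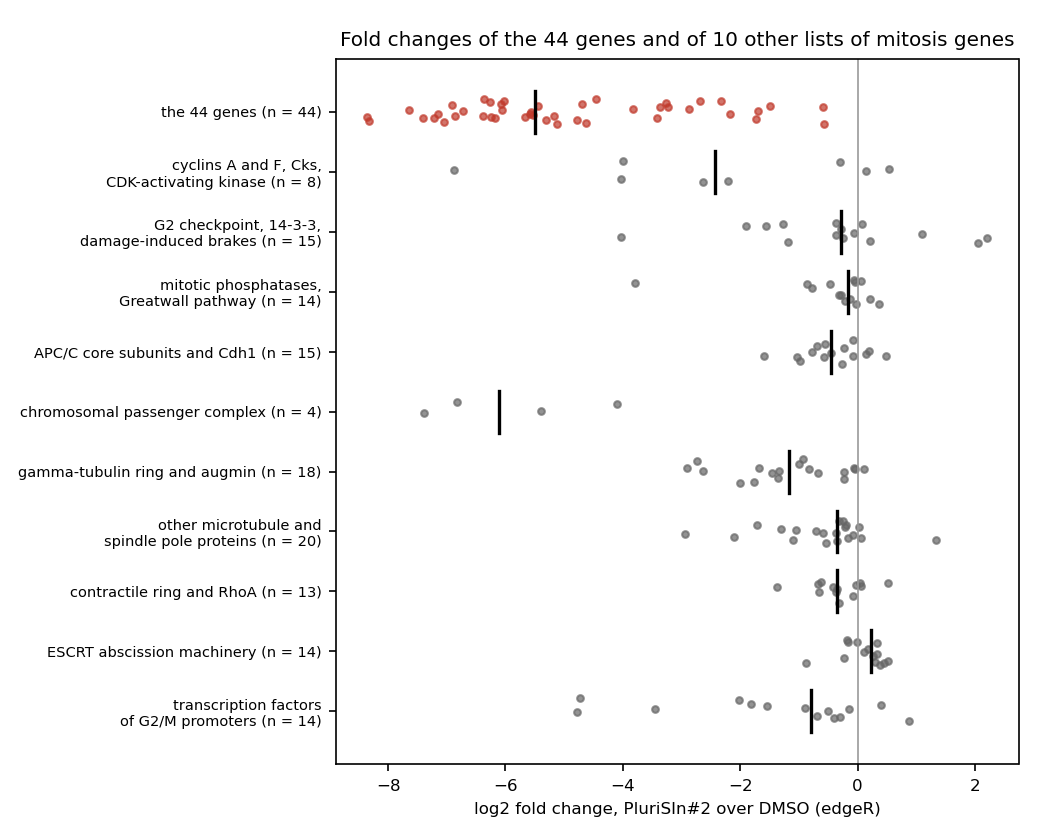
Log2 fold changes, PluriSIn#2 over DMSO, of each tested gene in the 44-gene set (red) and in 10 other lists of mitosis genes (grey), with a black bar at the median of each. The medians run from -6.10 for the chromosomal passenger complex to 0.23 for the ESCRT machinery, and that of the 44 genes is -5.49.

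Markers of other cell types moved with the treatment in the same libraries. The counts of calls below stand beside 41.7% of all tested genes called higher and 40.9% called lower. Of 13 microglia and macrophage markers, 10 of 11 tested were higher, their sum ran from 160 to 168 CPM in PluriSIn#2 and from 9.06 to 9.34 CPM in DMSO, and Trem2 had no read in DMSO. Of 8 fibroblast and mural cell markers 7 were higher, at sums of 220 to 225 CPM in PluriSIn#2 and 23.7 to 24.6 CPM in DMSO. Of 7 endothelial markers 5 of 6 tested were higher, at sums of 27.9 to 31.0 CPM in PluriSIn#2 and 5.33 to 5.85 CPM in DMSO. Of 5 ependymal and choroid plexus markers all 4 tested were higher, at sums of 638 to 658 CPM in PluriSIn#2 and 35.8 to 36.6 CPM in DMSO, and of 5 neuronal ones 3 were higher, at 97.3 to 101 CPM in PluriSIn#2 and 62.3 to 69.2 CPM in DMSO. Of 7 oligodendrocyte lineage markers all 6 tested were lower, at sums of 108 to 112 CPM in PluriSIn#2 and 285 to 296 CPM in DMSO. Their part in the fall of the mitotic genes was not tested.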

How the data were processed

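The members and the lists were chosen with earlier results of these data known. The submitters' processing notes name mm10 as the build and list STAR, HTSeq and DESeq as tools. Annotation, strand setting and filters are not stated there. The deposited count table holds whole-number read counts per gene symbol and library, not normalized, with no entries that name no gene. The deposited FPKM table holds values that the authors scaled by gene length and depth. It also carries the authors' deposited log2 fold changes and p-values, in which all 44 genes are lower at an adjusted p under 0.05 (29.5% of the genes listed), and 25 gene names that had turned into dates were left out. Of genes past 2-fold in that table, 99.5% have the sign of the difference of their FPKM.

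Counts were tested in R 4.3.3 with edgeR 4.0.16 (TMM, filterByExpr, glmQLFit and glmQLFTest, group as the only term, two-sided, Benjamini-Hochberg, threshold 0.05). All 44 genes passed the filter, as did 14417 of 19218 genes with a read. Standard errors are the log2 fold change over the square root of F. Alternatives used DESeq2 1.42.0, limma 3.58.1 on log2(FPKM + 1), other scalings and filters, and fewer libraries. The code was tested on simulated data. Pairs of replicates differed by more than sampling noise (chi-square per degree of freedom 1.57 to 2.27). Low treated counts limit precision. The only intervals given are the binomial ones of the promoter shares, which cover the counting of windows and do not concern expression. Exon overlaps were read from GENCODE M21 (GRCm38, equal to mm10). Values per library were given, by rule, for the most abundant, the most and the least changed gene of each role and for paralogue sets; Cdk1, Plk1, Gtse1 and Cdc20 were added after their values were seen. The rule also asked for protein stretches, which are not used here.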

Additional observations from a re-analysis of the deposited data

How the results depend on the processing

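All 44 genes stayed lower and past the threshold in each of 16 alternatives, covering scaling, filters, DESeq2 (29.4% of genes called lower), limma on deposited FPKM (39.5%), left-out replicates and a replicate block, so all 704 pairs of gene and alternative kept their call. The median log2 fold change of -5.49 moved to -4.13 with limma on log2(FPKM + 1), with or without a filter on low values. It moved to -5.29 with a pseudocount of 0.1, and to -5.31 with treated replicate 1 alone. The fit with treated replicate 1 alone takes its spread from the DMSO libraries only, so its calls add little. A larger pseudocount by its construction compresses the falls of genes whose treated values are near 0. Leaving out 1 replicate gave medians between -5.51 and -5.41. The count of at least 4-fold falls was 37 with limma on log2(FPKM + 1) and 39 otherwise. The ratio of summed CPM, PluriSIn#2 over DMSO, was 0.102, and 0.107 with library totals alone, a scaling that shifts the median of all genes by 0.07. Deviations of libraries with the same replicate number correlated at 0.0134, 0.0293 and -0.0025, and 2 treated libraries correlated best with their own number. With so few libraries these values cannot settle whether replicate numbers pair the samples. In the replicate block all 44 genes were lower, with a median of -5.49, and 5867 genes were called lower against 5900 without it. Of the promoter windows of the genes, 61.5% matched when TTTGAA was the only form searched. The shares of all windows and of those of tested genes were then 17.9% and 11.6%. In the last 150 bases, 64.1% held a CHR, against 8.59% of all windows and 5.22% of those of tested genes. Over the whole window 69.2% held a CHR, against 19.2% and 13.3%. Treated values of Cdc25c, Cep55 and Depdc1a rest on 12, 12 and 4 reads, so their folds are coarse.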

Other observations

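The 3 treated libraries were alike in what was left of these genes. The highest of the 3 was replicate 1 for 17 genes, replicate 2 for 14 and replicate 3 for 13. Single genes varied more between libraries in PluriSIn#2 than in DMSO, with median coefficients of variation of CPM of 11.6% and 2.39%, beside fewer reads per gene in PluriSIn#2. A read was found in all 6 libraries for 43 of the 44 genes, the exception being Depdc1a.

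The ratio of Tpx2 to its partner Aurka in FPKM was 2.26 ± 0.295 in PluriSIn#2 and 1.65 ± 0.034 in DMSO (SD, n = 3 each). That of Cdk1 to the sum of its B cyclins was 0.669, 0.349 and 0.370 in PluriSIn#2 and 0.563, 0.546 and 0.575 in DMSO, so that the DMSO values lay within the range of the treated ones.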
